A study of Ovis aries with 18 samples.

Results

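IL10 and IL12B were described from every probe of the sheep array whose listed RefSeq record belongs to either gene. These are 2 of 944 genes with a named probe, and 4 of 15008 non-control probes, 2 for each gene. IL10 was read by A_70_P030056, which is printed as 5 spots on each array, and by A_70_P030057, printed as 1 spot. IL12B was read by A_70_P039626 and A_70_P039627, with 1 spot each. Venous blood of 6 healthy adult female sheep, about 3 years old, was kept outside the body for 90 min with a buffered saline control (PBS), with lipopolysaccharide (LPS, labelled as 1 microg) or with monophosphoryl lipid A (MPLA, labelled as 10 microg). LPS is the cell wall glycolipid of Gram-negative bacteria and MPLA is a detoxified derivative of its lipid A part. Each animal gave 1 array per treatment, so there were 6 arrays of each treatment and 18 in all, and every comparison was made within animals. Agonist and amount cannot be told apart, because each agonist was used at 1 amount. The blood was isolated from its vessels and tissues, and RNA was taken from all its cells together, so fewer cells of a type and less RNA per cell cannot be told apart.

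Interleukin 10, the product of IL10, is a regulatory cytokine that limits the release of inflammatory cytokines and antigen presentation by monocytes and macrophages. Interleukin 12B, also called p40, is a subunit that interleukin 12 and interleukin 23 share, and interleukin 12 drives T helper 1 cells to make interferon gamma. Monocytes and dendritic cells make both proteins after Toll-like receptor 4, the receptor for LPS and MPLA, is engaged, and interleukin 10 in turn limits IL12B transcription in these cells.

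IL10 was measured in unstimulated blood and was higher with each agonist in every animal measured, whereas neither IL12B probe was well above background on more than 1 of 18 arrays. The scanner software calls a spot well above background when its signal clears the local background by a set margin. Both IL10 probes met this on all 18 arrays, and both were tested. Testing was limited to the 4122 probes that met it on each of the 6 arrays of 1 or more treatments. No IL12B probe was tested.

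With IL10 probe A_70_P030056, the processed signal ran from 48.7 to 374 (median 143) scanner units on the PBS arrays. On the LPS arrays it ran from 628 to 5248 (median 1021), and on the MPLA arrays from 762 to 5202 (median 2300). Both agonists lay above every PBS array, and the LPS and MPLA arrays overlapped. Because the arrays differed in brightness, signals were divided by the 75th percentile of their array, which ran from 24.8 to 124 over the 18 arrays, and the ratio on the log2 scale is called the level. The level of A_70_P030056 was 1.42 ± 0.42 (SD, n = 6) with PBS, 4.50 ± 0.58 with LPS and 5.02 ± 0.97 with MPLA. On this scale too the PBS arrays (0.81 to 1.91) did not reach the LPS arrays (4.01 to 5.56) or the MPLA arrays (4.18 to 6.85). Among all tested probes, 0.679% had every LPS array above every PBS array, and 0.607% had every MPLA array above every PBS array.

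The second IL10 probe, A_70_P030057, was dimmer. Its signal ran from 20.6 to 161 (median 60.0) with PBS, from 130 to 2006 (median 437) with LPS and from 387 to 1150 (median 912) with MPLA. The single spot was flagged as an outlier on the LPS and MPLA arrays of animal 71Y, so the level rested on 5 animals with each agonist: 0.04 ± 0.44 (SD, n = 6) with PBS, 2.99 ± 0.97 (n = 5) with LPS and 3.66 ± 0.51 (n = 5) with MPLA. The PBS arrays (-0.43 to 0.70) again lay below all LPS arrays (1.501 to 4.18) and all MPLA arrays (3.13 to 4.37).

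**Figure D1:**
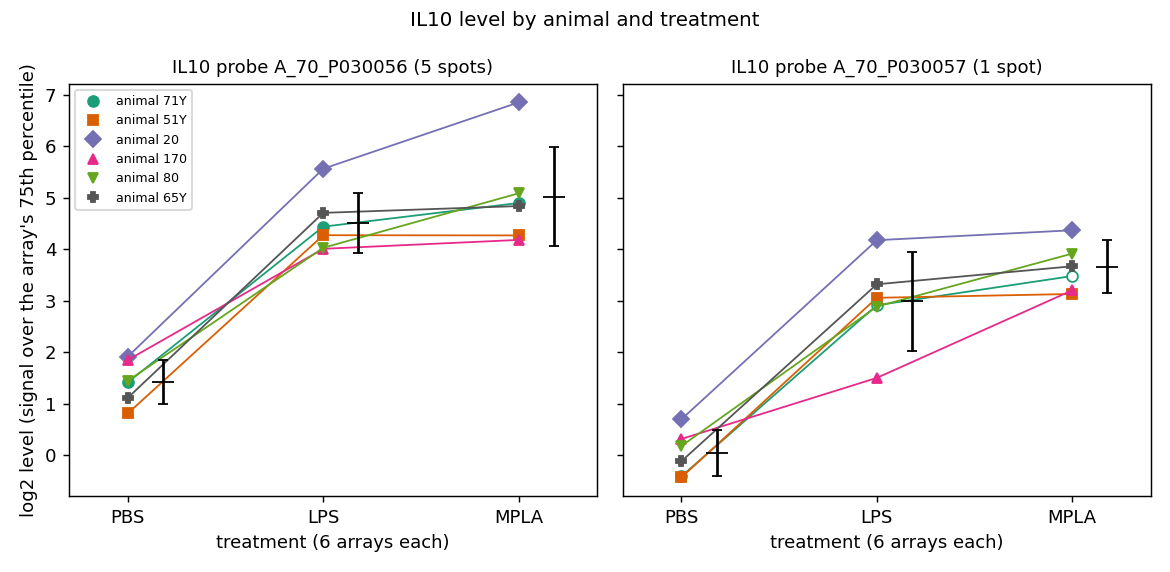
The log2 level of each IL10 probe (signal over the 75th percentile of the array, vertical axis) with PBS, LPS and MPLA, each animal joined by a line and black bars giving the mean ± SD of spots not flagged as outliers. Open symbols are the flagged spots of animal 71Y. All PBS arrays sit below all LPS and MPLA arrays, animal 20 is the highest with MPLA on A_70_P030056 (6.85), and animal 170 is the lowest with LPS on A_70_P030057 (1.501).

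The first question was whether LPS changed IL10 within 90 min. On A_70_P030056 the log2 change from PBS was 3.02 in animal 71Y, 3.46 in 51Y, 3.65 in 20, 2.16 in 170, 2.58 in 80 and 3.59 in 65Y. The rise was present in 6 of 6 animals, with animal 170 the smallest. Its mean was 3.08 (SD 0.61, SE 0.22, n = 6), a fold of 8.45 (95% interval 5.96 to 11.97), with an adjusted p of 0.00012 by limma with Benjamini-Hochberg adjustment over all 4122 probes. Over all tested probes, 0.898% were called, 0.825% higher, 2.3% were higher in every animal measured, and the median change was -0.01. IL10 ranked 13 by size of rise among these probes. The rank is not exact, since IL6, IL1A and CSF2 stood above IL10 by rises from PBS signals not well above background. Their lower bounds (2.45, 2.68 and 1.23) lie below 3.08. On A_70_P030057 the change was 3.49 in animal 51Y, 3.48 in 20, 1.19 in 170, 2.71 in 80 and 3.44 in 65Y. The mean was 2.86 (SD 0.99, n = 5), a fold of 7.26 (95% interval 4.22 to 12.5, adjusted p = 0.0038 by limma). Another background correction (normexp, a model of signal plus background) gave smaller rises of 2.11 and 1.82 for the probes in this order, and with it neither was called (adjusted p = 0.31 and 0.37 by limma).

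With MPLA the question was the same. On A_70_P030056 the log2 change from PBS was 3.48 in animal 71Y, 3.46 in 51Y, 4.94 in 20, 2.33 in 170, 3.64 in 80 and 3.73 in 65Y. Animal 20 showed the largest rise and animal 170 the smallest, and 6 of 6 animals were higher. The mean was 3.60 (SD 0.83, n = 6), a fold of 12.1 (95% interval 7.87 to 18.6, adjusted p = 0.000116 by limma). Across all tested probes 1.02% were called, 0.776% higher, 2.09% were higher in every animal measured, and the median change was -0.09. IL10 ranked 8 by size of rise, and this rank is not exact either. IL1A, CSF2 and IL6 stood above it by rises from PBS signals not well above background, with lower bounds of 2.98, 1.90 and 1.66. A_70_P030057 rose by 3.56 in animal 51Y, 3.67 in 20, 2.89 in 170, 3.74 in 80 and 3.79 in 65Y. Animal 170 lay below the others, which were close together. The mean of the 5 values was 3.53 (SD 0.37), a fold of 11.6 (95% interval 8.51 to 15.7), with an adjusted p of 3.57e-05 by limma. Scaling the arrays to their median instead moved the median of all tested probes by 0.24, and relative to that median A_70_P030056 stood at 3.69 under both scalings. The agreement was fixed in advance, since each scaling shifts all probes of an array alike. With normexp background correction this value was 3.11. Both IL10 probes were called under each alternative that was run for MPLA.

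MPLA was then set directly against LPS. On A_70_P030056 the log2 difference was 0.46 in animal 71Y, -0.00 in 51Y, 1.29 in 20, 0.17 in 170, 1.06 in 80 and 0.13 in 65Y. The level was higher with MPLA in 5 of 6 animals, and the mean of 0.52 (SD 0.53) corresponded to a fold of 1.43 (95% interval 1.02 to 2.003). This difference was not called (unadjusted p = 0.038, adjusted p = 0.84 by limma). On A_70_P030057 the difference was 0.07 in animal 51Y, 0.19 in 20, 1.70 in 170, 1.03 in 80 and 0.35 in 65Y, higher with MPLA in 5 of 5 animals. Its mean of 0.67 (SD 0.69) was a fold of 1.59 (95% interval 1.04 to 2.43) and was not called either (unadjusted p = 0.035, adjusted p = 0.84 by limma). In this comparison 0.0485% of all tested probes were called, all of them lower with MPLA, 0.946% were higher with MPLA in every animal measured and 1.89% were lower in every animal. The median of all tested probes was -0.08 here and 0.11 when arrays were scaled to their median instead. Relative to that median the difference was 0.60 on A_70_P030056 under both scalings and 0.75 on A_70_P030057 under both. Each scaling shifts all probes of an array alike, so this agreement was fixed in advance. With normexp background correction the values relative to the median were 0.82 and 0.48.

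**Figure D2:**
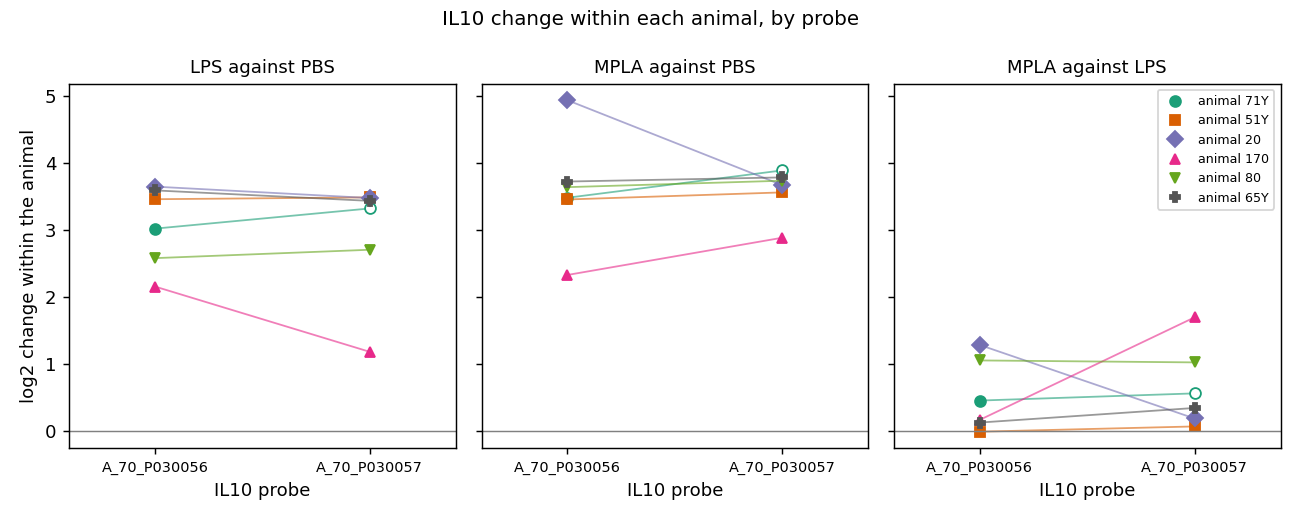
Log2 change of IL10 within each animal (vertical axis) on both probes, with each agonist against PBS and between the agonists. Lines join the probes of an animal, and open symbols include a flagged spot of animal 71Y, which did not enter the means. All changes from PBS lie above 1, and the lines cross for animals 20 and 170 in the comparison of MPLA with LPS.

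The IL10 probes differed most in animals 20 and 170. The signal of A_70_P030056 divided by that of A_70_P030057 lay between 1.97 and 3.55 on 16 arrays. It was 5.59 on the MPLA array of animal 20 and 5.68 on the LPS array of animal 170, against a median of 2.39 over 18 arrays. In the comparison of MPLA with LPS, the larger value in animal 20 therefore came from A_70_P030056 (1.29 against 0.19) and the larger one in animal 170 from A_70_P030057 (1.70 against 0.17). Without animal 20 the mean difference on A_70_P030056 was 0.36, and without animal 170 that on A_70_P030057 was 0.41.

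The 5 spots of A_70_P030056 are spread over the array, which allowed a check of its reading by position. On the LPS array of animal 170 they read 894, 934 and 896 in rows 14, 83 and 100, but 505 and 471 in rows 159 and 181. The spots below row 150 thus averaged 0.54 of those above it, whereas on the other 17 arrays this ratio ran from 0.78 to 1.05. Other probes with 5 spots gave a median ratio of 0.671 on that array (3 such probes well above background) and of 0.863 to 1.20 on the others. The single spot of A_70_P030057 stands in row 161, and its part in the low LPS value of animal 170 was not tested. With the 3 upper spots alone, the LPS change of animal 170 was 2.46 in place of 2.16, the mean LPS change was 3.14 ± 0.54 (SD, n = 6), and the difference of MPLA from LPS was 0.47 ± 0.58, with animal 170 at -0.12. With the 2 lower spots alone these were 1.56, 2.95 ± 0.79, 0.61 ± 0.53 and 0.78. The split by rows was chosen after seeing the data.

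**Figure D3:**
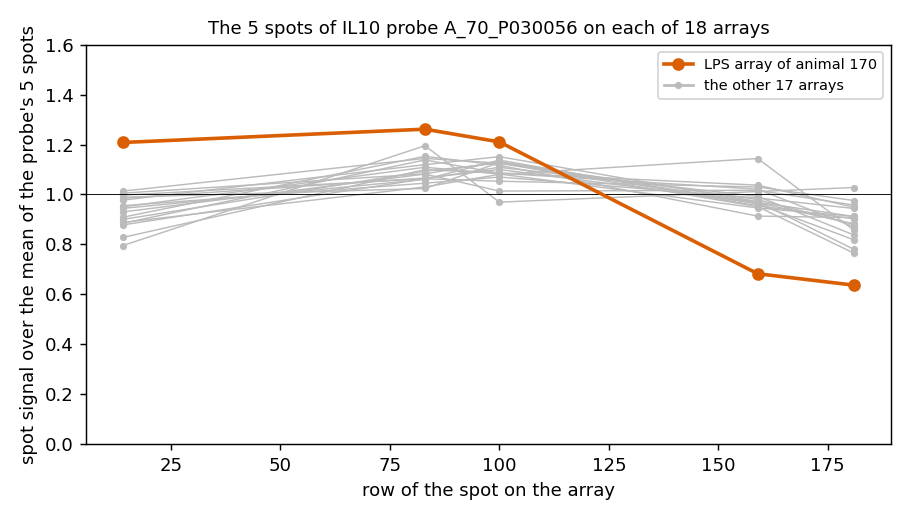
Signal of each of the 5 spots of A_70_P030056 over the mean of the 5 (vertical axis) against the row of the spot on the array (horizontal axis), 1 line per array. The LPS array of animal 170 falls from 934 scanner units in row 83 to 471 in row 181, and the other 17 arrays stay nearer to 1.

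IL12B, the T helper 1-driving member of the pair, gave almost no signal. Probe A_70_P039626 was well above background on 0 of 18 arrays. Its background-subtracted signal ran from -18.9 to 2.48 (median -2.42) scanner units with PBS, from -24.8 to -3.49 (median -7.86) with LPS and from -27.3 to 0.66 (median -5.93) with MPLA. No array with either agonist lay above the highest PBS array. The processed signal was at the lowest value of the array, which the scanner software puts in place of readings it does not find above background, on all 18 arrays.

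Probe A_70_P039627 was well above background on 1 of 18 arrays, the LPS array of animal 170. Its background-subtracted signal ran from -6.62 to 14.4 (median 2.08) with PBS, from -5.47 to 26.2 (median 0.91) with LPS and from -10.7 to 1.86 (median -3.42) with MPLA. Apart from the value of 26.2, the LPS arrays reached 3.32 at most and so lay within the range of the PBS arrays. That value stood just above 24.0, the lowest signal of any probe called well above background on the same array. It was the array on which the lower IL10 spots read low, and the IL12B spot stands in row 181. On this array the E1A spike-in control spots had a median of 11.7, against -1.14 to 0.77 on the other LPS arrays. The next highest median of all 18 arrays was 5.96, on the PBS array of animal 20, which also gave the second highest reading of this probe (14.4). The part of these features in the IL12B reading was not tested.

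Over both IL12B probes and all arrays, 1 of 36 readings was well above background, 22 of 36 were below 0 after background subtraction, and 3 of 36 exceeded every negative control spot of their array (70 to 77 such spots per array). The 3 readings were the LPS array of animal 170 and the PBS arrays of animals 71Y (11.48) and 20 (14.4), all on A_70_P039627. They carry the less strict flag for positive and significant signal as well, and 2 of the 3 came from unstimulated blood. No fold is given as a measurement of IL12B, since both sides of each comparison were at or near background. When dim probes were not filtered out, A_70_P039627 had an unadjusted p of 0.67 for LPS against PBS and of 0.020 for MPLA against PBS (adjusted p = 1.0 and 0.80 by limma). On this probe 3 of 18 readings were measured and the others were stand-in signals, so these values do not measure a change. With low values raised to the lowest well-above signal of the array, both IL12B probes gave the same log2 value of -0.26 for MPLA against PBS. It is the difference between the limits of the arrays and does not measure IL12B. By the flag for signal well above background, IL12B was thus detected in 1 LPS reading and no other at 90 min, and a change below the detection limit was not tested. A direct test of the IL10 change against the IL12B change was to be run if IL12B was well above background on at least 4 of 6 arrays of an agonist, and this was not met.

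**Figure D4:**
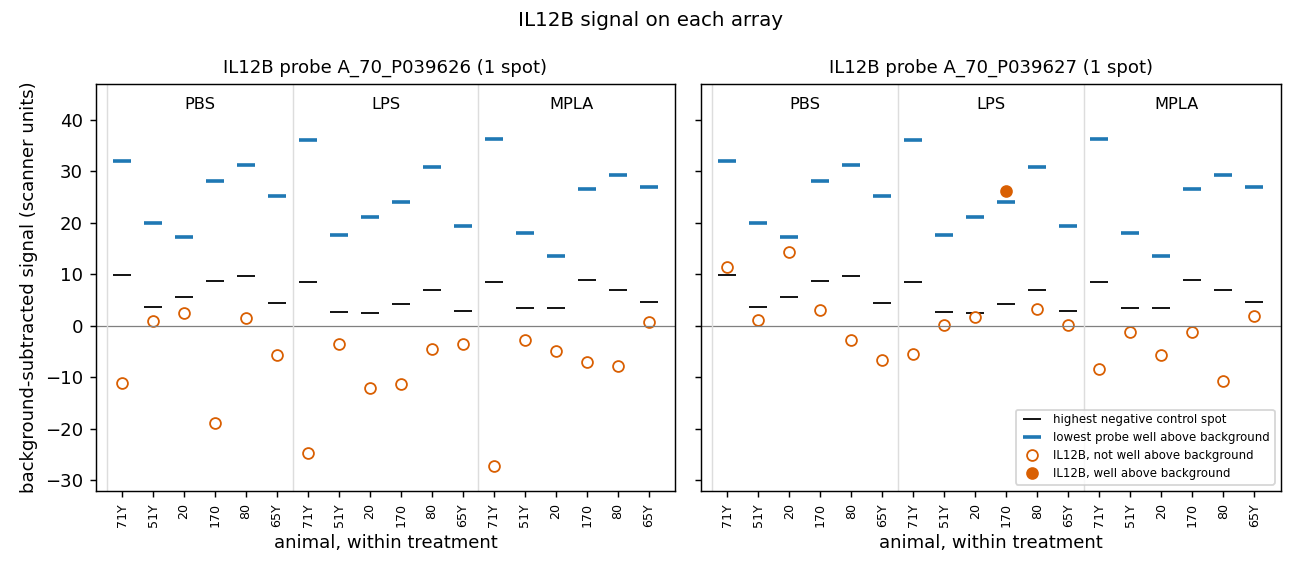
Background-subtracted signal of each IL12B probe (vertical axis, scanner units) on the 18 arrays, by animal within treatment, with the highest negative control spot (black dash) and the lowest probe called well above background (blue dash) of the same array. Filled circles are well above background, and the LPS array of animal 170 on A_70_P039627 (26.2) is the 1 filled circle among 36.

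The partner and product genes of interleukin 12 were also dim. IL12A, the p35 subunit that pairs with IL12B, was well above background on 0 of 18 arrays with one probe and on 3 of 18 with the other, 1 array of each treatment. IFNG, the interferon gamma that T and natural killer cells release under interleukin 12, was seen on 10 and 11 of 18 arrays with its 2 probes, on 4 LPS arrays and 4 MPLA arrays with each. When probes detected on 4 of 6 arrays of a treatment were tested as well, its log2 change was 0.16 and 0.22 with LPS and 0.04 and 0.02 with MPLA, and neither IFNG probe was called (adjusted p of 0.94 or more by limma). IL18, a cytokine that acts with interleukin 12, was tested and gave -0.28 with LPS and -0.44 with MPLA, neither called. These were the 3 named genes of 16 in the interleukin 12 family, receptor and signalling list, and 0 of 17 genes of the corresponding interleukin 10 list had a named probe. The neighbours of IL10 in the gene order of the sheep annotation, MAPKAPK2 on one side and the family members IL19, IL20 and IL24 on the other, had no named probe either.

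Of 35 regulators of IL10 and IL12B transcription or mRNA stability, 4 had a named probe and 2 were tested. CREM, a cAMP-responsive transcription factor gene, gave 0.07 with LPS and 0.32 with MPLA, and ZFP36, whose protein destabilises cytokine mRNA, gave -0.07 and -0.09. None of these values was called. The paper lists A_70_P018791 under NFKBIZ, another gene of this list, and this probe had no gene name here. It rose by 2.61 with LPS, in 6 of 6 animals (adjusted p = 0.00013 by limma). FOS and IRF1 were well above background on 0 of 18 arrays. Among 15 other T helper and regulatory cytokines, 7 had a named probe and 0 were tested, and their 11 probes were well above background on 2 arrays at most, those of IL2, IL4, IL5 and IL13 included. Probes of one gene could differ in this: PTGS2 was well above background on 18 arrays with one probe and on 2 with the other, and ZFP36 on 18 and 0. Whether the IL12B probes report their transcript was not tested.

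IL10 rose beside the early pro-inflammatory cytokines. Of 14 genes in that list, which includes the enzyme gene PTGS2, 8 were tested. With LPS 7 were called higher and with MPLA 7, and 0 were called lower. Of all tested probes, 0.825% were called higher and 0.0728% lower with LPS, and 0.776% and 0.243% with MPLA. With normexp background correction LPS left 0 of the 8 called and MPLA 5, and all 8 changes stayed above 0 with each agonist. The median change of the list was 2.61 with LPS and 2.17 with MPLA. IL1A, IL6 and CSF2, which are among the 7, were well above background on 0 PBS arrays. They entered testing only through agonist arrays, where they were high, so their calls follow in part from the filter. Their rise is a lower bound, and with these 3 at their bound the medians were 2.47 and 1.76. IL6 was at least 5.45-fold higher with LPS and at least 3.17-fold higher with MPLA. Its adjusted p of 0.00050 and 0.0017 by limma came from PBS signals not well above background and does not measure these bounds. With low values raised to the lowest well-above signal of the array, CSF2 was called with neither agonist. IL6 then kept its call with LPS and lost it with MPLA. IL1A, an early alarm cytokine, was at least 6.42-fold higher with LPS and at least 7.89-fold higher with MPLA. CXCL8, the neutrophil chemokine, was the gene not called with either agonist on its brightest probe (1.12 with LPS, 0.55 with MPLA), and its other probe was called with LPS (adjusted p = 0.042 by limma). PTGS2, which encodes cyclooxygenase 2, passed narrowly with MPLA and did not pass (adjusted p = 0.11 by limma) when probes detected on 4 of 6 arrays were added. CSF2 passed narrowly with LPS (adjusted p = 0.044 by limma). It was not called when those probes were added, or without animal 71Y, 51Y, 20, 80 or 65Y.

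In the direct comparison of MPLA with LPS, 0 of these 8 genes were called by limma. The difference was negative for 5 and positive for 3, with a median of -0.43, beside 0.52 and 0.67 on the IL10 probes. For IL6 the MPLA array read below the LPS array in 6 of 6 animals (-0.78, SD 0.45, unadjusted p = 0.0031, adjusted p = 0.80 by limma), and CXCL1, a neutrophil chemokine, was also lower in 6 of 6 (-0.82, SD 0.54, unadjusted p = 0.0038, adjusted p = 0.82 by limma). TNF gave -0.28 and was lower in 6 of 6 animals, CXCL8 gave -0.58 and PTGS2 gave -0.87. CSF2, a myeloid growth factor, gave 0.67, IL1A gave 0.30 and IL1B gave 0.09, each higher with MPLA in 4 of 6 animals. Without animal 65Y 1 of the 8 differences was positive, and without 71Y 2. The difference between IL10 and these genes in their response to the agonists was not tested, and all of the values share the same arrays.

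**Figure D5:**
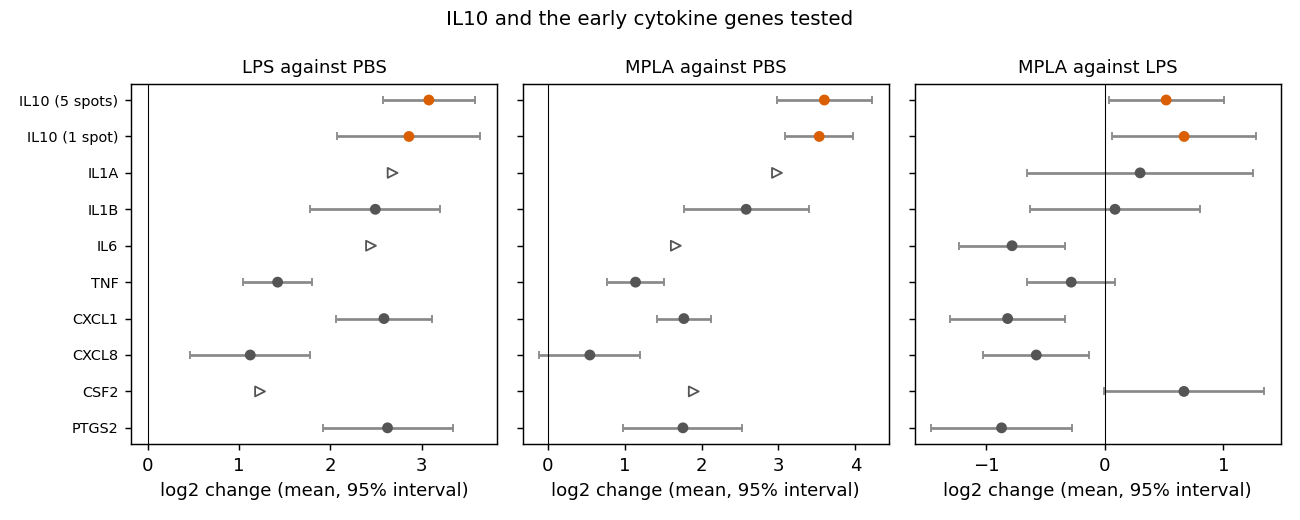
Mean log2 change with its 95% interval from limma (horizontal axis) of both IL10 probes and of the 8 tested genes of the early cytokine list, the enzyme gene PTGS2 included, for the 3 comparisons. Open triangles are lower bounds for IL1A, IL6 and CSF2, which did not clear background on the PBS arrays. In the comparison of MPLA with LPS the IL10 probes lie at 0.52 and 0.67 and the median of the 8 genes at -0.43.

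Probes whose pattern was most like that of A_70_P030056 were ranked by Pearson's r after the mean of each animal was subtracted, over the 4121 other tested probes. The closest was the second IL10 probe (r = 0.97 over 15 arrays). It was followed by A_70_P005636 (r = 0.957 over 18 arrays), LOC101104661 (0.952 over 18), A_70_P019681 (0.952 over 18) and A_70_P016701 (0.949 over 16). Except for LOC101104661 these other probes have no gene name in the tables used. All 4 were called higher with LPS and with MPLA, which follows in part from picking them by likeness to IL10. Of all tested probes, 0.825% were called higher with LPS and 0.776% with MPLA. The points share arrays and animals, so these values are descriptions with no test.

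Levels of cell type markers were read beside IL10. Of 8 monocyte markers, 3 had a named probe. CD14, the LPS co-receptor of monocytes, gave -0.32 with LPS and -0.48 with MPLA, LYZ gave -0.11 and -0.17, and ITGAM was well above background on 0 arrays. The summed level of CD14 and LYZ (signal over the 75th percentile, linear scale) ran from 26.8 to 53.8 with PBS, from 25.4 to 46.4 with LPS and from 21.7 to 57.5 with MPLA. T cell markers CD3D and CD3E, of 3 named among 9, had summed levels of 220 to 472, 223 to 474 and 242 to 517, and CD4 was seen on 0 arrays. No tested marker of monocytes, T cells, natural killer cells or erythroid cells was called with either agonist. No named probe was present for 6 dendritic cell and 5 platelet markers, and 1 gene each of the B cell (CR2) and neutrophil (LTF) lists was named and not tested.

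IL10 changes were also read within slides, since 3 slides held the arrays and each animal lay on a single slide, apart from the MPLA array of animal 170. On A_70_P030056 the mean LPS change was 2.59, 3.09 and 3.56 on the slides, with 2 animals each. The MPLA change was 3.48 on the slide with 1 complete animal and 3.68 and 4.20 on the others, and MPLA minus LPS was 0.46, 0.60 and 0.64 in this order. All 3 directions held within each slide as means over its animals.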

How the data were processed

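Per the labels, 18 single-colour Agilent arrays measured RNA of sheep whole blood. The authors scanned them and extracted the spots with Agilent Feature Extraction 11.5.1.1, and each deposited file holds spot intensity values. The study's methods scale arrays to the 75th percentile in GeneSpring; a table the authors deposited holds the ratio of each signal to a value near that percentile and served as an alternative. The labels name more than one amplification kit, and which array used which is not given in the sources used here. Here, processed signal was averaged over the spots of a probe, with spots flagged as outliers left out. The mean was divided by the 75th percentile of the array, taken with flagged spots kept, and put on the log2 scale. Control spots were removed. Within-animal differences were tested with limma 3.58.1 (lmFit, eBayes) in R 4.3.3 with animal as a fixed block, called at an adjusted p under 0.05, on 12 arrays per comparison. The fit was tested on simulated data. The labels name the animal of each array, and arrays of an animal deviated together (mean r 0.60, lowest 0.13, over 18 pairs). Array number limits the precision.

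Genes were named by matching accessions to a RefSeq table of assembly ARS-UI_Ramb_v3.0: 1265 of 2200 probes with a RefSeq accession matched (944 genes). The members and the lists were chosen with earlier results of these data known. Named genes were the probes of IL10 and IL12B, up to 4 tested genes per list by smallest p, all genes of the interleukin 10 and 12 lists, and the 5 probes most like IL10; undetected genes and cell markers named beyond this were chosen after their values were seen. Alternatives covered scaling, background correction, filters, the block, slides and each animal left out.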

Additional observations from a re-analysis of the deposited data

Results flagged for a closer look

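In 24 groups of 5 or 6 values of the IL10, IL12B and IL18 probes, 6 held a value that stood apart from the rest of its group. Chance sets apart about 1 in 20 independent groups, and these groups reuse the same values as levels, changes and ratios. IL10 probe A_70_P030056 had a log2 level of 6.85 with MPLA in animal 20, where the other animals lay between 4.18 and 5.09. IL10 probe A_70_P030057 rose by 2.89 with MPLA in animal 170, below the other animals (3.56 to 3.79). The log2 ratio of the IL10 probes was 2.51 on the LPS array of animal 170 (1.14 to 1.39 on the LPS arrays of 51Y, 20, 80 and 65Y) and 2.48 on the MPLA array of animal 20 (0.98 to 1.17 on the MPLA arrays of 51Y, 170, 80 and 65Y). Animal 71Y, whose second spot was flagged as an outlier on both arrays, was left out of these ranges and stood at 1.53 and 1.42. IL12B probe A_70_P039626 had a background-subtracted signal of -27.3 on the MPLA array of animal 71Y (others -7.82 to 0.66). IL12B probe A_70_P039627 read 26.2 on the LPS array of animal 170 (others -5.47 to 3.32). The causes were not tested.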

How the results depend on the processing

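IL10 was called higher with MPLA under 21 of 21 alternatives on A_70_P030056 (3.13 to 3.85) and 19 of 19 on A_70_P030057 (2.5001 to 3.76). With LPS it was called under 20 of 21 and 17 of 19. The exceptions were normexp background correction (2.11 on A_70_P030056 and 1.82 on A_70_P030057) and, on A_70_P030057, the methods' t-test after Benjamini-Hochberg adjustment (2.86, adjusted p = 0.33); the cause was not tested. MPLA against LPS was called under 0 of 21 and 0 of 19 alternatives (0.36 to 1.02 and 0.41 to 0.86). Leaving out each animal gave 2.96 to 3.26 with LPS, 3.33 to 3.85 with MPLA and 0.36 to 0.62 for MPLA against LPS on A_70_P030056, and 2.70 to 3.28, 3.47 to 3.69 and 0.41 to 0.82 on A_70_P030057. Without the replicate block the A_70_P030056 changes were 3.08 and 3.60 (adjusted p = 2.91e-05 and 0.000139 by limma), A_70_P030057 gave 2.95 and 3.62, and MPLA against LPS had unadjusted p = 0.23 and 0.14. The slide could not be fitted as a term for LPS against PBS, since both arrays of each animal share a slide; for MPLA it gave the same fit as leaving out animal 170, and both count once. By the positive and significant flag, chosen after seeing the data as were the kept outlier spots, the IFNG test and the cytokine counts by setting, IL12B probe A_70_P039627 was detected on 3 arrays in place of 1. Counts of probes called moved more. With LPS, 37 became 2 with normexp, 71 by the methods' t-test at its threshold and 10 after Benjamini-Hochberg. With MPLA, 42 became 24 with no filter, 287 without animal 20, 94 and 13 by the t-test. For MPLA against LPS, 2 became 1 (median scaling, 4 of 6 filter), 3 (all 18 arrays in 1 fit, without animal 170), 17 (without animal 20), 53 and 1 (t-test), or 0 by limma (normexp, no filter, no block, and without 71Y, 51Y, 80 or 65Y), with 44 to 435 probes at an unadjusted p under 0.05 where 0 were called. Signal over background limits IL12B: the lowest well-above signals of the arrays were 13.6 to 36.2 scanner units, and 1 of its readings passed that of its array.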
